A study of Mus musculus with 2 samples.

Results

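The genes described here make, lengthen, desaturate and bind fatty acids: Fasn, Scd1, Scd2, Elovl1, Elovl3, Elovl4, Elovl5, Elovl6, Fabp4 and Fabp5. They were found by their name in the gene-name column of both scanner files, among spots that are not controls. They are 10 of the 28090 gene names in the files and had 14 probes of the 41174 gene probes on each array, and every one of these 14 is given below.

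RNA of primary epidermal keratinocytes from K14-caSmad1 mice was set against RNA of primary epidermal keratinocytes from wild-type mice, all FVB/NJ animals at day 20 after birth. K14-caSmad1 mice carry a constitutively active Smad1, an effector of bone morphogenetic protein signalling, and the name of the line refers to keratin 14, whose promoter is active in basal keratinocytes. The comparison was hybridised on 2 arrays labelled as biological replicates, each with K14-caSmad1 RNA in the Cy5 channel and wild-type RNA in the Cy3 channel, so no dye swap was available and a dye effect and the genotype cannot be told apart. The labels say neither how many animals entered a sample nor which, so the p-values below measure how well the arrays repeated.

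Fatty acid synthase, encoded by Fasn, builds palmitate from acetyl and malonyl units. Stearoyl-CoA desaturases, encoded by Scd1 and Scd2, place a double bond in the resulting saturated chains, and elongases of the Elovl family carry out the first step of each round of chain lengthening in the endoplasmic reticulum. In skin the products go into the ceramides of the cornified barrier, into sebum and into the lipids of hair. Fatty acid binding proteins carry the chains through the cell, Fabp4 being best known from adipocytes, macrophages and capillary endothelium and Fabp5 from the epidermis.

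The result with the largest ratios was that of Fabp4, and 2 of its 3 probes are shown, those that start at bases 75 and 391 of the transcript. The third starts at base 472 and is described below. Both probes shown hold a single reading frame free of stop codons. Positions are on the mm9 build, minus strand of chromosome 3, the first at chr3:10208442-10208501 and the second at chr3:10204533-10205262. The second covers 730 genomic bases with 60 bases of probe and so joins separate stretches of the genome. All letters are in lower case, as no part is marked.

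Fabp4 A_52_P564544: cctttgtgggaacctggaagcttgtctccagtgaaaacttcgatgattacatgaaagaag

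Fabp4 A_51_P336830: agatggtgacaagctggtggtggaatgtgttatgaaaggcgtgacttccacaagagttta

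The 250 bases before the transcript start of Elovl4 and Elovl6, from RefSeq with build GRCm38.p6, are shown because both hold GGCGCC, a motif known to be bound by Smad1, while the genes differed in their ratios. The Elovl4 window lies at chr9:83806306-83806555 on the minus strand and the Elovl6 window at chr3:129532136-129532385 on the plus strand. Capitals mark GGCGCC.

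Elovl4: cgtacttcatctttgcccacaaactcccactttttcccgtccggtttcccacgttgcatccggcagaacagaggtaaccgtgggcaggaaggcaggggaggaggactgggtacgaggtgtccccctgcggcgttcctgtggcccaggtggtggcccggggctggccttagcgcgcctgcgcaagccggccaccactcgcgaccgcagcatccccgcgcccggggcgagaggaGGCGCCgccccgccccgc

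Elovl6: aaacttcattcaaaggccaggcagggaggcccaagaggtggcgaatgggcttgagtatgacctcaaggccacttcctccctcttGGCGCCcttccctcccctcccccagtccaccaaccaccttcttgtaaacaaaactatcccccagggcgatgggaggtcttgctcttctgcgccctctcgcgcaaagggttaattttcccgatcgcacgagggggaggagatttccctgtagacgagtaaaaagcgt

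Levels are normalized intensities, that is, background-corrected and loess-normalized brightness on a linear scale, and ratios are log2 of K14-caSmad1 over wild type. A test was run on each probe whose signal exceeded background clearly, by the scanner software's flag, in at least 1 of the channels on both arrays. This held for 15110 probes, the 14 described here among them. In both channels on both arrays, 13 of the 14 were well above background, the exception being Fabp5. On replicates 1 and 2, 14412 and 15800 gene spots were well above background in K14-caSmad1, against 15570 and 16144 in wild type, and 0 were saturated. Across 12287 single-spot probes the SD of the difference between the arrays was 0.0946, below the 0.107 that the noise between spots of repeated probes predicts. For the means of 94 repeated probes that SD was 0.0519, above the predicted 0.0346. Smad1 itself had log2 ratios of 0.28 and 0.26 at its tested probe, while its other probe was not well above background, and whether either lies in the transgene is not given in the sources used here.

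Of the 14 probes, 1 was at least 2-fold higher on both arrays in K14-caSmad1 keratinocytes, that of Elovl4, which is the elongase of very long chains for barrier ceramides. Among all tested probes 3.79% met that rule. Another 4 probes were at least 2-fold lower on both arrays, namely the 3 of Fabp4 and that of Elovl3, against 9.48% of all tested probes. By gene these are Fabp4 and Elovl3 only, where 9.81% of all tested genes were at least 2-fold lower. The other 9 probes, of Fasn, Scd1, Scd2, Elovl1, Elovl5, Elovl6 and Fabp5, met neither rule. limma's test called 12 of the 14 probes at an adjusted p under 0.05, 4 higher and 8 lower, but it also called 86.6% of all tested probes, so a call by itself says little here. The median log2 ratio was -0.17 over the 14 probes and -0.02 over all tested probes. Centring each array on its median in place of loess moved the median of all tested probes by 0.249 on the log2 scale. Ratios of the 14 probes smaller than that are given with any setting that turned them. Ratios and medians of that size for other genes and lists are given without it, so their direction may depend on the normalization.

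**Figure D1:**
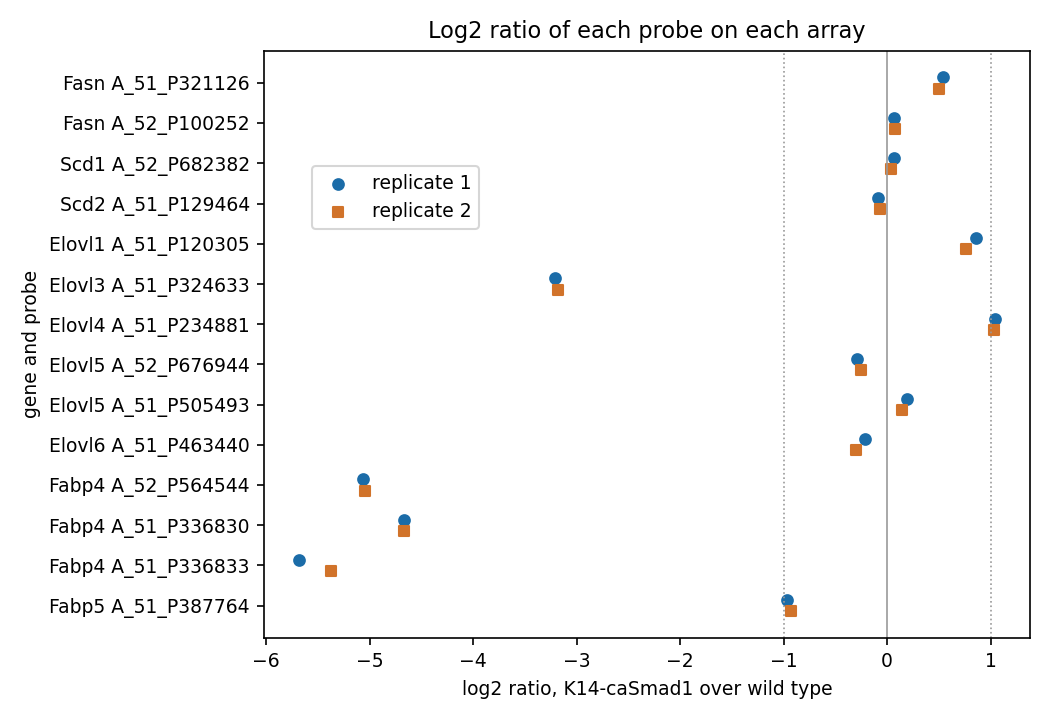
Log2 ratio of K14-caSmad1 over wild type (horizontal axis) for each of the 14 probes (vertical axis), with circles for replicate 1 and squares for replicate 2; dotted lines mark 2-fold and the solid line no difference. The 3 Fabp4 probes lie between -5.68 and -4.67 and Elovl3 near -3.20, Elovl4 lies just past 1 at 1.04, and Fabp5 lies just inside -1 at -0.97 and -0.93.

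Fabp4, the fatty acid binding protein of adipocytes and macrophages, was far lower in K14-caSmad1 keratinocytes at all 3 probes. The probe nearest the 5′ end, A_52_P564544, starting at base 75 of the transcript, had normalized intensities of 586 and 595 in K14-caSmad1 keratinocytes, against 19598 and 19641 in wild-type keratinocytes. The log2 ratios were -5.06 and -5.04, a level 33.2-fold lower (SE 0.03 on the log2 scale; limma adjusted p = 2.27e-05). Across the arrays the channels did not overlap, and the K14-caSmad1 level came to 3.01% of the wild-type level. It ranked 33 from the lowest of the 15110 probes.

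The probe that joins separate genomic stretches, A_51_P336830, starting at base 391, had intensities of 6929 and 6893 in K14-caSmad1 keratinocytes, against 176266 and 175884 in wild-type keratinocytes. Its log2 ratio was -4.67 on both arrays, 25.5-fold lower (SE 0.02; limma adjusted p = 2.27e-05), and it ranked 59 from the lowest. The arrays thus gave nearly the same ratio at either probe, while the ratios of the 2 probes differed from each other by more than the arrays did.

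The third probe, A_51_P336833, starts at base 472 of the transcript, at chr3:10204452-10204511 on the minus strand (mm9). It had intensities of 2139 and 4562 in K14-caSmad1 keratinocytes, against 109936 and 188951 in wild-type keratinocytes. Replicate 2 was brighter in both channels, by more in K14-caSmad1, and the log2 ratios of -5.68 and -5.37 differed by 0.311, the largest difference between arrays at any of the 14 probes, where the next was 0.0921. The mean of -5.53 is 46.1-fold lower (SE 0.09; limma adjusted p = 3.97e-05) and ranked 12 from the lowest. With other background corrections and normalizations, listed in the closing section, the mean log2 ratio of Fabp4 lay between -5.91 and -4.39 over its probes. Both ends belong to A_52_P564544, the lower with the scanner software's own processed signals and the upper without background subtraction.

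**Figure D2:**
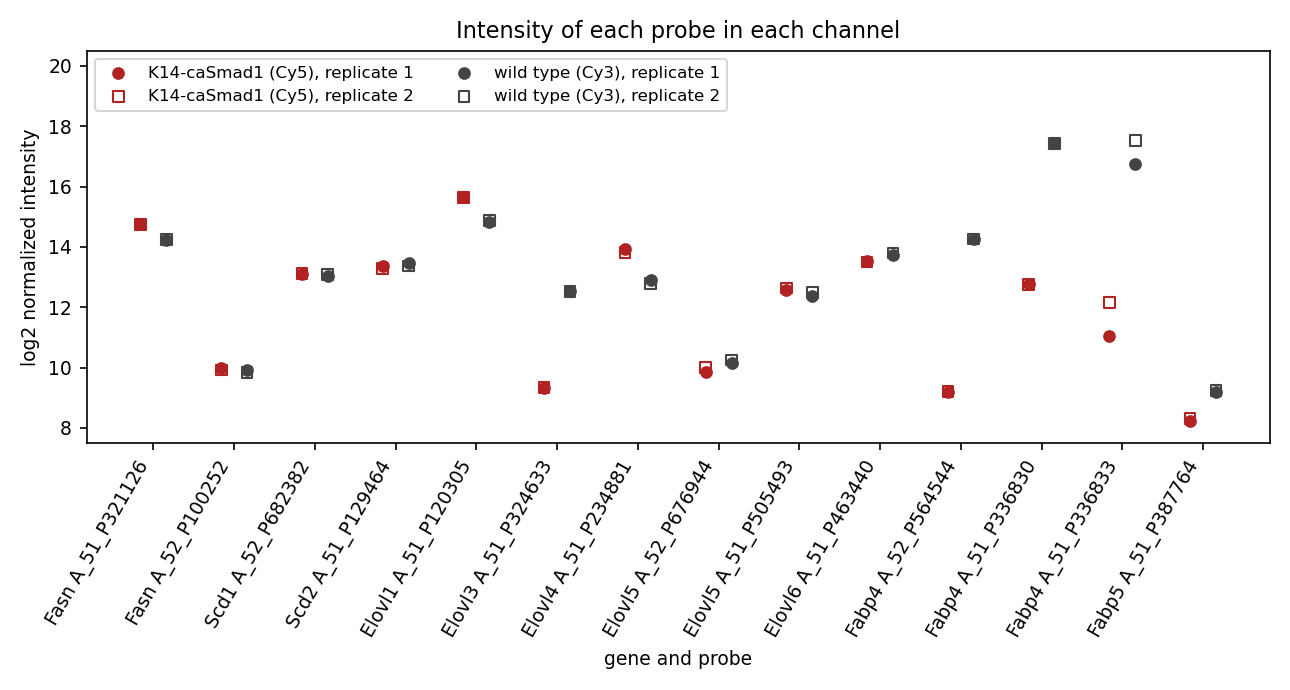
Log2 normalized intensity (vertical axis) of each of the 14 probes (horizontal axis), with K14-caSmad1 in red on the left of each pair and wild type in grey on the right; filled circles are replicate 1 and open squares replicate 2. At the 3 Fabp4 probes and at Elovl3 the channels lie far apart, and at A_51_P336833 of Fabp4 the arrays differ in both channels.

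Fabp5, the epidermal fatty acid binding protein, has 1 probe, A_51_P387764, at chr3:10016373-10016432 on the plus strand (mm9). Its intensities were 302 and 317 in K14-caSmad1 keratinocytes, not well above background on either array, against 590 and 602 in wild-type keratinocytes. It was at least 1.43-fold lower under the reported background correction, a bound set by the lowest signal that counts as well above background. The measured log2 ratios were -0.97 and -0.93 (SE 0.03; limma adjusted p = 8.33e-05). The size of the difference rests on the treatment of background: the mean log2 ratio was -3.35 with the scanner software's processed signals and -0.52 when normexp was run on all spots, where limma no longer called it (adjusted p = 0.0746).

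On chromosome 3 the genes Fabp5, Pmp2, Fabp9, Fabp4 and Fabp12 follow each other in the order of the RefSeq table (assembly GRCm38.p6), all of them coding for fatty acid binding proteins. Pmp2, the myelin member, and Fabp12 were not well above background in either channel. Fabp9, a member best known from testis, was looked up after its values were seen. It had intensities of 266 and 298 in K14-caSmad1 keratinocytes, not well above background, against 1251 and 1209 in wild-type keratinocytes, and was at least 2.95-fold lower. The measured log2 ratios of Fabp9 were -2.23 and -2.02, and its 2-fold call was lost with normexp on all spots. Beyond the cluster, Zfp704 had a log2 ratio of -0.31, while Impa1, an inositol monophosphatase, stood at 0.81 and Zfand1, a zinc finger protein, at 0.38, so no tested neighbour outside the binding proteins was 2-fold lower. The longest exact run that a Fabp4 probe shared with a probe of any other gene was 15 bases of 60.

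Among the elongases, Elovl3 was far lower, Elovl4 and Elovl1 were higher, and Elovl5 and Elovl6 lay within 0.3 of 0. Elovl3 lengthens saturated and monounsaturated chains and is known in mouse skin from sebaceous glands and hair follicles. Its probe, A_51_P324633, at chr19:46209762-46209821 on the plus strand (mm9), had intensities of 648 and 647 in K14-caSmad1 keratinocytes, against 5997 and 5879 in wild-type keratinocytes. The log2 ratios were -3.21 and -3.18, 9.17-fold lower (SE 0.03; limma adjusted p = 2.27e-05), and the probe ranked 188 from the lowest. Across the arrays, every K14-caSmad1 level lay below every wild-type level. The mean log2 ratio lay between -3.85 with the scanner software's signals and -2.58 with normexp on all spots. Its measured neighbours on chromosome 19 did not share that size: Ldb1, a LIM domain binding protein, stood at -0.69, Nfkb2, an NF-kB subunit, at -0.36, Pprc1 at -0.30, Nolc1 at -0.09 and Gbf1 at 0.04.

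Elovl4 makes the very long acyl chains of the barrier ceramides, and mice that lack its activity die after birth with a leaky skin. Its probe, A_51_P234881, at chr9:83672645-83672704 on the minus strand (mm9), had intensities of 15672 and 14461 in K14-caSmad1 keratinocytes, against 7611 and 7057 in wild-type keratinocytes. The log2 ratios were 1.04 on both arrays, 2.05-fold higher (SE 0.02; limma adjusted p = 6.54e-05), and the probe ranked 554 from the highest. It stayed above 1 in the settings tried, from 1.01 to 1.31, but it stands close to the 2-fold line.

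Elovl1 lengthens saturated chains to the range found in sphingolipids and is also needed for the barrier in mice. Its probe, A_51_P120305, at chr4:118105025-118105084 on the plus strand (mm9), had intensities of 51997 and 51153 in K14-caSmad1 keratinocytes, against 28752 and 30093 in wild-type keratinocytes. The log2 ratios were 0.85 and 0.77, 1.75-fold higher (SE 0.03; limma adjusted p = 0.000172). Across the arrays the channels did not overlap, but the difference stayed under 2-fold except with median centring, which gave a mean of 1.04.

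Elovl5, which lengthens polyunsaturated chains, has 2 probes, and they went opposite ways. At A_52_P676944 (chr9:77831600-77831659, plus strand, mm9) the intensities were 934 and 1021 in K14-caSmad1 keratinocytes, against 1145 and 1216 in wild-type keratinocytes, with log2 ratios of -0.29 and -0.25 (limma adjusted p = 0.00156). At A_51_P505493 (chr9:77832205-77832264, plus strand, mm9) they were 6025.1 and 6380 in K14-caSmad1 keratinocytes, against 5289.97 and 5769 in wild-type keratinocytes, with log2 ratios of 0.19 and 0.15 (limma adjusted p = 0.00673). No direction is given for the gene, as its first probe also turned to 0.019 with median centring. Elovl6, which takes palmitate to stearate, had intensities of 11808 and 11553 in K14-caSmad1 keratinocytes, against 13686 and 14274 in wild-type keratinocytes at its probe A_51_P463440 (chr3:129341248-129341307, plus strand, mm9). Its log2 ratios were -0.21 and -0.31 (SE 0.03; limma adjusted p = 0.00379), and with median centring the mean turned to 0.00583. limma called neither Elovl6 nor the probes of Elovl5 when normexp was run on all spots.

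Fasn, the synthase that supplies these chains, differed little or moderately depending on the probe. A_51_P321126 (chr11:120668460-120668519, minus strand, mm9), starting at base 8690 of the transcript, had intensities of 27618.5 and 27490.3 in K14-caSmad1 keratinocytes, against 18996 and 19442 in wild-type keratinocytes. Its log2 ratios were 0.54 and 0.50, 1.43-fold higher (SE 0.03; limma adjusted p = 0.000274). A_52_P100252 (chr11:120667666-120667725, minus strand, mm9), starting at base 9484, had 1005 and 969 in K14-caSmad1 keratinocytes, against 962 and 919 in wild-type keratinocytes. The log2 ratios of 0.06 and 0.08 did not pass limma's threshold (adjusted p = 0.0621), though they did in 5 other settings, with means of up to 0.35. The probe further downstream therefore gave the smaller ratio, and neither probe reached 2-fold in any setting.

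The desaturases Scd1 and Scd2 stood at 104% and 94.5% of the wild-type level in K14-caSmad1 keratinocytes. Scd1, which the sebaceous gland needs in mice, had intensities of 8746 and 8885 in K14-caSmad1 keratinocytes, against 8353 and 8665 in wild-type keratinocytes (A_52_P682382, chr19:44469387-44469446, minus strand, mm9). The genotypes lay close together within each array. The log2 ratios of 0.07 and 0.04 did not pass limma's threshold (adjusted p = 0.137). They passed it without background subtraction and with median centring, where the mean was 0.33. Scd2, the form needed for the barrier of newborn mice, had 10544 and 10005 in K14-caSmad1 keratinocytes, against 11218 and 10528 in wild-type keratinocytes (A_51_P129464, chr19:44381024-44381083, plus strand, mm9). The levels overlapped between genotypes across the arrays, where replicate 1 was brighter in both channels. Within each array K14-caSmad1 was slightly lower. The log2 ratios were -0.09 and -0.07 (SE 0.02; limma adjusted p = 0.0418), and the mean turned to 0.19 with median centring, 0.0255 without background subtraction and 0.0298 with normexp on all spots. limma no longer called Scd2 with the scanner software's signals (adjusted p = 0.119), with the deposited ratios (adjusted p = 0.116) or with no detection filter (adjusted p = 0.129). Scd3 and Scd4, which lie in the same cluster on chromosome 19, were not well above background in either channel.

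**Figure D3:**
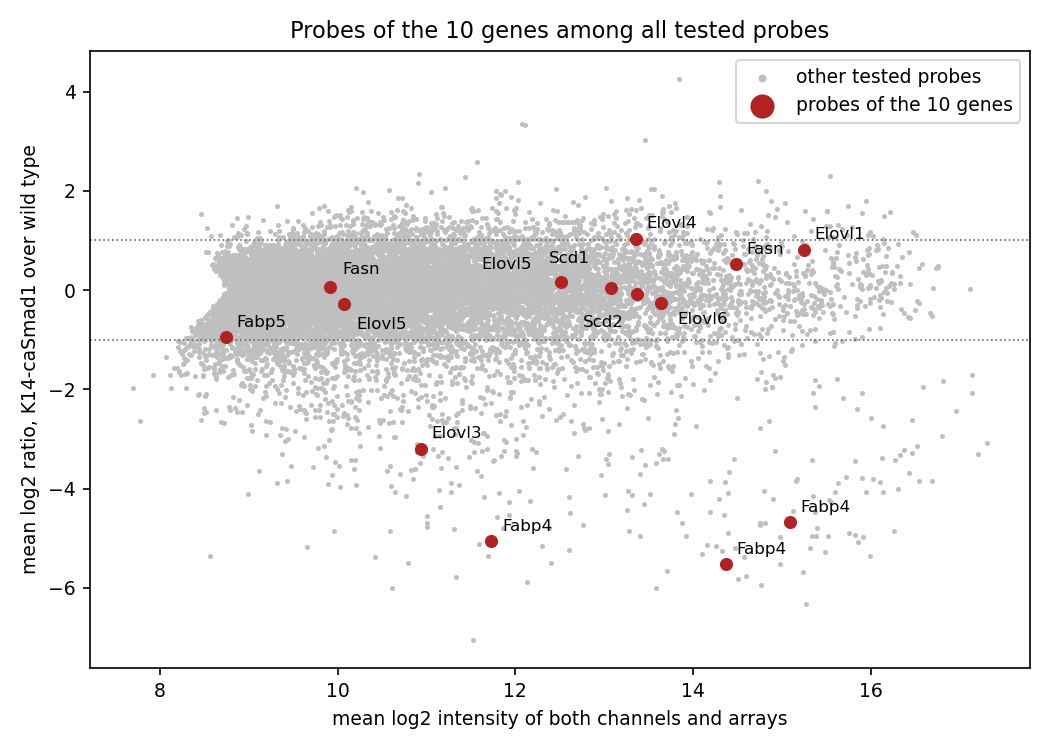
Mean log2 ratio of K14-caSmad1 over wild type (vertical axis) against the mean log2 intensity of both channels and arrays (horizontal axis) for the 15110 tested probes in grey, with the 14 probes of the 10 genes in red; dotted lines mark 2-fold. The 3 Fabp4 probes and Elovl3 lie below the main cloud, at mean log2 ratios of -5.53, -5.05, -4.67 and -3.20, and the others lie between -0.95 and 1.04.

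The table of RefSeq promoters (build GRCm38.p6) held 6 promoters of 5 of the 10 genes, Fasn, Elovl1, Elovl4, Elovl5 and Elovl6. In the 250 bases before the start, on both strands, 8 motifs were searched. GGCGCC stood in promoters of 4 genes, at 202 bases before the start in Fasn, 25 in Elovl1, 18 in Elovl4 and 166 in Elovl6, and in 9.59% of all 32851 promoters. It stood in 4 of the 6 promoters, the other promoter of Elovl1 being without it. Elovl4 and Elovl1 are the higher elongases, Fasn had mean log2 ratios of 0.52 and 0.07 at its probes, and Elovl6 had -0.26. No promoter was held for the far lower Elovl3 and Fabp4, nor for Scd1, Scd2 and Fabp5. The shares of all promoters were not matched for G and C content. The shorter Smad sequence GTCTG stood in Elovl1 and Elovl5 and in 42.2% of all promoters, and its palindrome GTCTAGAC, which shares 4 letters with it, in none of the 5 genes and in 0.167% of all promoters. The E-box CACGTG stood in Elovl5 and in 6.02% of all. The sterol element letters TCACNCCAC, found in 1.05% of all, and the SRE-1 element of the LDL receptor gene, found in 0.0731%, stood in none of the 5 genes. CCAAT, in 33.8% of all, stood in Fasn, Elovl1 and Elovl5, and GGGCGG, in 32.7% of all, in Elovl1 and Elovl4. The windows are rich in G and C, from 55.6% in Elovl5 to 72% in one promoter of Elovl1.

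Other genes of the same pathways were counted at gene level, with each gene taken at its brightest tested probe. Of all 11748 genes tested, 4.09% were at least 2-fold higher and 9.81% at least 2-fold lower on both arrays, and their median log2 ratio was -0.03. The supply of acetyl and malonyl units had 8 of 11 genes tested, of which 0 were 2-fold higher and 0 lower, with a median of 0.06. By the counted probes the largest ratios were those of Acss2, acetyl-CoA synthetase, at -0.67 and -0.83 on the arrays, and Slc25a1, the citrate carrier, at -0.63 and -0.65. Me1, malic enzyme, stood at -0.37 at its brightest probe, which was counted, and at -1.42 at another. The partners of the elongation cycle and remaining elongases had 7 of 8 genes tested, again 0 higher and 0 lower, with a median of -0.00319. Within this list the dehydratases Hacd2 and Hacd1 differed most, Hacd2 at 0.90 and 0.80, with another probe at -0.31, and Hacd1 at -0.81 and -0.80. With the scanner software's signals Acss2 and Hacd1 were 2-fold lower (-1.51 and -1.52), and with median centring Hacd2 was 2-fold higher (1.15).

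The remaining desaturases and their electron donors had 6 of 10 genes tested, 1 higher and 1 lower, with a median of 0.17. Fads2, the delta-6 desaturase of polyunsaturated chains and also of sebum lipids, was lower, with intensities of 993 and 919 in K14-caSmad1 keratinocytes, against 9363 and 9083 in wild-type keratinocytes, and log2 ratios of -3.24 and -3.30. Degs1, the desaturase that completes ceramide, was higher, with 15258 and 14657 in K14-caSmad1 keratinocytes, against 5496 and 5400.4 in wild-type keratinocytes, and log2 ratios of 1.47 and 1.44. Both stayed past 2-fold in all 8 other settings in which they were measured, Fads2 from -3.65 to -2.86 and Degs1 from 1.43 to 1.73. Among these settings, the other detection filters leave a ratio unchanged. The deposited ratios nearly repeat those of the scanner software's signals, so fewer than 8 settings could have moved them.

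Of the further fatty acid binding proteins, Fabp1, Fabp2, Fabp3, Fabp6, Fabp7 and Pmp2 were not well above background in either channel. Uptake and activation had 10 of 13 genes tested, 1 higher and 3 lower, with a median of -0.33. Acsl3, an acyl-CoA synthetase, had log2 ratios of -1.69 and -1.75, and Slc27a1, a fatty acid transporter, had -1.06 and -1.09, with another probe at -0.64. Slc27a6, a transporter as well, was at least 2.47-fold lower, and Slc27a2 at least 1.74-fold higher, not being well above background in wild type. Its count as 2-fold higher rests on the measured log2 ratio of 1.31 against that dim channel, not on the bound. In other settings the mean log2 ratio shrank to -0.79 for Slc27a6 and 0.73 for Slc27a2, short of these bounds. The 2-fold calls of Slc27a1, Slc27a6 and Slc27a2 were lost without background subtraction, that of Slc27a1 also with median centring, and those of all 4 genes with normexp on all spots.

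The lipogenic regulators had 10 of 13 genes tested, 0 higher and 1 lower, with a median of -0.14. The lower gene was Insig1, a sterol-regulated anchor of the SREBP pathway, with intensities of 319 and 361 in K14-caSmad1 keratinocytes, not well above background, against 1689 and 2084 in wild-type keratinocytes. It was at least 4.49-fold lower, with a measured log2 ratio of -2.92 at another probe, and its 2-fold call was lost with normexp on all spots. No other tested regulator reached 2-fold.

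**Figure D4:**
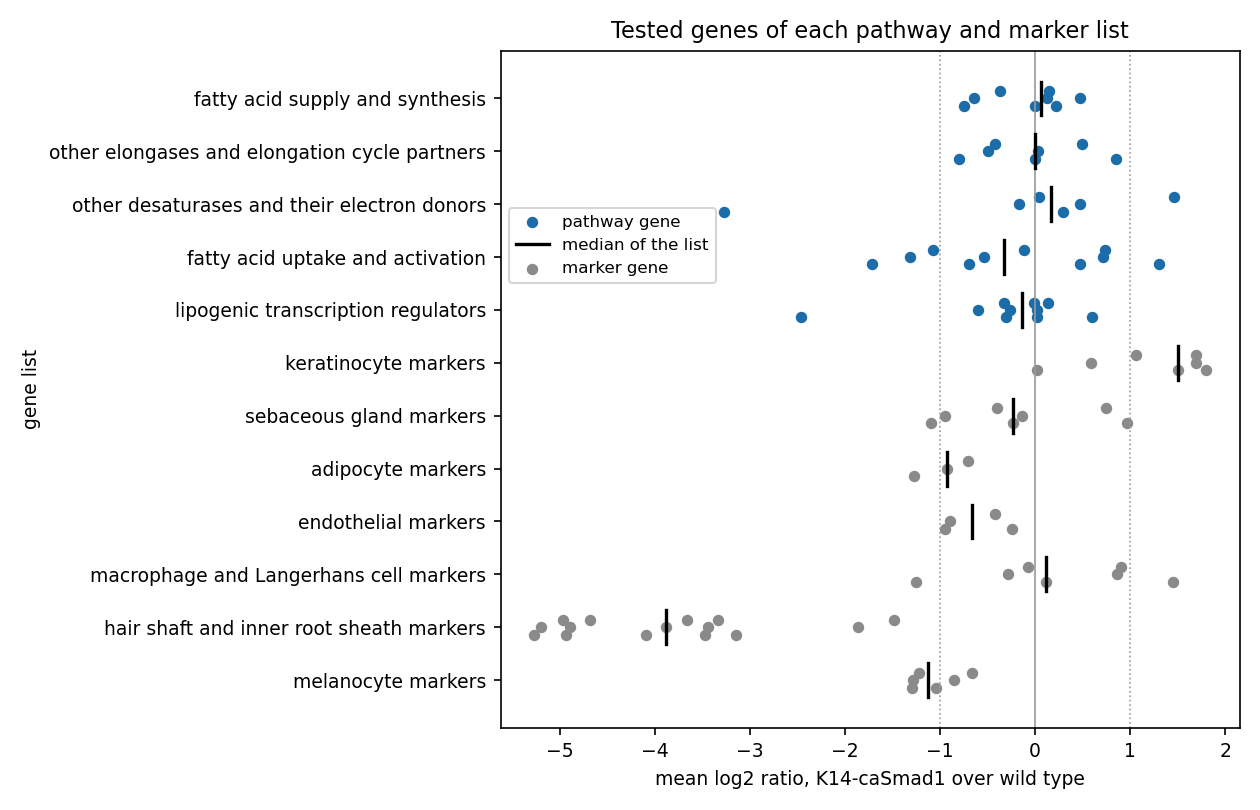
Mean log2 ratio of K14-caSmad1 over wild type (horizontal axis) for each tested gene of 5 pathway lists (blue) and 7 marker lists (grey), with a black bar at each list's median; dotted lines mark 2-fold. The hair shaft list lies entirely below -1 with a median of -3.88, the keratinocyte list has a median of 1.50, and most pathway genes lie within the dotted lines, apart from genes such as Fads2 at -3.27.

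Marker genes of the labelled cells and of other cells that the skin holds were measured beside these values. Summed intensities take in every gene of a list on the array, also those not well above background. Because each channel holds the RNA of many cells, fewer cells of a type and less RNA per cell cannot be told apart. Of the keratinocyte markers 7 of 8 were tested, 5 higher and 0 lower, with summed intensities of 448387 and 514846 in K14-caSmad1 keratinocytes, against 255231 and 264417 in wild-type keratinocytes. Krt1 stood at 1.80, Krt5 at 1.70, Itga6 at 1.50 and Trp63 at 1.69, with another Trp63 probe at -0.78.

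Like Fabp4, Elovl3 and Fads2, the hair shaft and inner root sheath markers were lower in K14-caSmad1 keratinocytes. All 15 of those on the array, of 19, were tested and at least 2-fold lower, with a median of -3.88. Their summed intensities were 124413 and 134611 in K14-caSmad1 keratinocytes, against 2146100.0 and 2460930.0 in wild-type keratinocytes. Among them Krt33a stood at -5.27, Krt86 at -5.20, Krt28 at -4.97 and Krt34 at -4.94. Their part in the Fabp4, Elovl3 and Fads2 results was not tested.

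Of the sebaceous gland markers 7 of 12 were tested, 0 higher and 1 lower, that being Ldhb, lactate dehydrogenase B, at -1.10. Their summed intensities were 110491 and 144692 in K14-caSmad1 keratinocytes, against 101410.0 and 112767 in wild-type keratinocytes, a sum to which Dgat2 and Krt79 gave most. The list's median log2 ratio was -0.23. The others tested, given after their values were seen, were Mgst1 at -0.95, with another probe at -2.14, Plin2 at -0.40, Soat1 at -0.23, Krt79 at -0.13, Cidea at 0.74 and Dgat2 at 0.97, with other Dgat2 probes at 0.21 and -0.22. Their part in the Elovl3 result was not tested. Awat2, Plin5, Mc5r and Far2 were not well above background in either channel. Of the adipocyte markers 3 of 11 were tested, 0 higher and 1 lower, that being Lipe, hormone-sensitive lipase, at least 2.39-fold lower. The other tested ones were Lpl, lipoprotein lipase, at least 1.27-fold lower, and Pnpla2, a triglyceride lipase, at -0.71, with another probe at -0.11, and the list's median was -0.93. Adipoq, Plin1, Lep, Cfd, Retn, Cidec, Slc2a4 and Car3 were not well above background in either channel. The sums were 4387 and 4468 in K14-caSmad1 keratinocytes, against 6171.5 and 6238 in wild-type keratinocytes. Of the 11 genes summed, 10 were not well above background in K14-caSmad1 and 8 in wild type. The part of the adipocyte markers in the Fabp4 result was not tested.

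Of the endothelial markers 4 of 11 were tested, 0 higher and 0 lower by 2-fold, and Pecam1, Cdh5, Kdr, Tek, Cldn5, Tie1 and Emcn were not well above background in either channel. Flt1 was at least 1.59-fold lower and Vwf at least 1.84-fold lower, and with the scanner software's signals or the deposited ratios both passed 2-fold, with mean log2 ratios as low as -3.49 for Flt1 and -1.91 for Vwf. With either of these, 3 of the endothelial genes were 2-fold lower. The others tested, given after their values were seen, were Esam, at least 1.28-fold lower, and Egfl7 at -0.24. The list's median was -0.66, and the sums were 3941 and 3915 in K14-caSmad1 keratinocytes, against 4919.8 and 4968 in wild-type keratinocytes. In K14-caSmad1, 11 of the 11 genes summed were not well above background, Egfl7 failing on 1 array only, against 7 in wild type. The part of these markers in the Fabp4 result was not tested. Of the macrophage and Langerhans cell markers 7 of 10 were tested, 1 higher and 1 lower. Adgre1, a macrophage surface receptor, stood at 1.45 and Cd68 was at least 2.03-fold lower, with a list median of 0.11. The others tested, given after their values were seen, were Ptprc at 0.90, Cd207 at 0.86, Cd74 at 0.11 and Csf1r at -0.08. Cd14 was at least 1.15-fold lower. The sums were 18817 and 19555 in K14-caSmad1 keratinocytes, against 13583 and 14064.5 in wild-type keratinocytes. The melanocyte markers had 6 of 7 genes tested, 0 higher and 2 lower, namely Pmel at -1.28 and Mitf at least 1.74-fold lower, the count of Mitf resting on its measured log2 ratio of -1.30 against a dim channel. The sums of the melanocyte list were 3491 and 3337 in K14-caSmad1 keratinocytes, against 6908 and 7234 in wild-type keratinocytes. Of the 7 genes summed, 5 were not well above background in K14-caSmad1 and 1 in wild type. The part of these markers in the results was not tested. The 2-fold calls of Ldhb, Lipe, Cd68, Mitf and Pmel were lost without background subtraction, and these and that of Adgre1 with normexp on all spots.

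**Figure D5:**
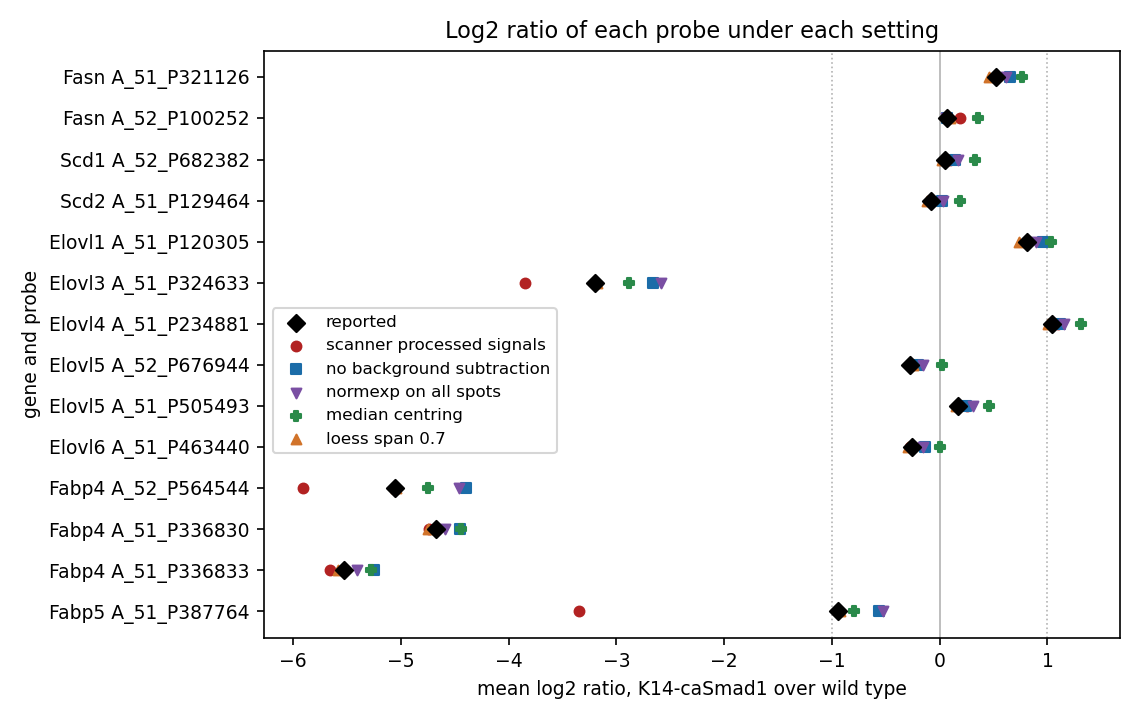
Mean log2 ratio of K14-caSmad1 over wild type (horizontal axis) of each of the 14 probes (vertical axis) as reported (black diamonds) and with 5 other ways to correct background or normalize (coloured marks); dotted lines mark 2-fold. The Fabp4 probes stay between -5.91 and -4.39 and Elovl3 between -3.85 and -2.58, Fabp5 spreads from -3.35 to -0.52, and the probes near 0 shift upward with median centring.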

How the data were processed

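RNA of 2 samples, each a pair of K14-caSmad1 (Cy5) and wild-type (Cy3) keratinocytes, was hybridised to 60-base oligonucleotide arrays of 1 slide. The deposited scanner files come from Agilent Feature Extraction 10.5.1.1, per the file headers, and hold the mean signal and local background intensity of each spot without normalization, as well as processed intensities that the software background-subtracted and dye-normalized. The deposited table of both arrays holds log10 ratios that differed from those of the processed signals by at most 0.00397.

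From mean signal and median background, normexp (offset 50) was run after 36 spots of replicate 1 with a non-uniform background were dropped, and loess (span 0.3) was applied, in limma 3.58.1 under R 4.3.3. Spots with an outlier flag were left out and repeated spots averaged. limma's lmFit and eBayes tested the mean of the arrays' log2 ratios against 0, with Benjamini-Hochberg adjustment over the 15110 tested probes at 0.05. Counts took probes or genes that differed 2-fold or more in 1 direction on each array. Lower bounds ("at least") set the bright channel's mean over the dim channel's, floored at the lowest well-above-background signal. For the bounds, average intensities of the loess-normalized values were also matched between arrays (Aquantile in limma). The bounds hold for the reported background correction and normalization only, and they are open to dye bias. In other settings the mean log2 ratio fell short of the bound for genes such as Insig1 (-1.56), Fabp9 (-1.22) and Slc27a6 (-0.79). Gene names were updated through the RefSeq table of GRCm38.p6, 25001 probes by accession, 5960 by symbol and 1767 through a synonym, while 8446 kept the file's name. Genes named are every probe of the 10 genes, Smad1, and of each pathway and marker list up to 4 genes with the largest ratio among those past 2-fold, otherwise the 2 largest. Fabp9 and the genes beside the clusters were added later. The genes and lists were chosen with earlier results of these data known. A list of further binding proteins is not reported here as a whole. The fit was tested on simulated data. The number of arrays limits the precision.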

Additional observations from a re-analysis of the deposited data

How the results depend on the processing

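Alternatives were the scanner software's processed signals, no background subtraction, normexp on all spots, median centring, loess with a span of 0.7, the deposited ratios, other detection filters, an intensity trend in eBayes and each array alone. Of 111 alternative ratios of the 14 probes that limma tested, 92 kept their direction and side of its threshold. Another 7 gained a call, 7 lost it and 5 reversed. Those under other detection filters carry the reported ratio itself, so only their call could change. The deposited ratios nearly repeat those of the scanner software's signals. The 28 ratios of a single array have no test and kept their direction. Median centring turned Scd2 to 0.19, Elovl5 at A_52_P676944 to 0.019 and Elovl6 to 0.00583, and Scd2 was 0.0255 without background subtraction and 0.0298 with normexp on all spots. The count of 2-fold higher probes became 2 with median centring, where Elovl1 joined Elovl4, and lay between 1 and 1 with 1 array left out. The count of 2-fold lower probes was 4 to 4 with 1 array left out, and 5 with the scanner software's signals, where Fabp5 joined. limma called 7 probes with normexp on all spots. Of 286 alternative list counts, 242 stayed within 1.5 times the count given and 44 moved, mostly lists of few or dim genes. The causes were not tested. Each array pairs the genotypes, and the ratios within arrays are what was tested. The levels given were not matched between arrays, so statements on overlap across the arrays also carry differences in array brightness. Signal over background limits Fabp5, which was not well above background in K14-caSmad1: the negative control spots had SDs of 52.7 and 34.4 in Cy5 (K14-caSmad1), against 11.1 and 10.8 in Cy3 (wild type).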
